A study of Mus musculus with 2 samples.

Results

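Interleukins and their receptors were examined in the ileum of mice with castor oil-induced diarrhea, as every row of the gene table whose symbol starts with Il and a digit. The rule took 82 of 23358 rows. They comprised 37 ligands, 40 receptor chains (3 of them decoys), 3 soluble antagonists and 2 genes that are neither, namely Il4i1, an amino acid oxidase, and a row named Il8, which lies at the position of the chemokine gene Cxcl15. In group E, young BALB/c mice were given saline by intraperitoneal injection, castor oil by mouth and then ellagic acid (EA, a plant polyphenol) by mouth, once a day on consecutive days. In group D, mice received the same saline injection and castor oil, and then saline by mouth in place of EA. RNA of ileum tissue was sequenced. The table gave 1 value per gene and group, as fragments per kilobase of transcript, scaled to the number of mapped fragments (FPKM, a level per length and sequencing depth). The paper lists 2 sequenced libraries per group, but the table gave no value per library. There was therefore no replicate for any value here, and no test between the groups was possible from these values. Mice that never received castor oil were not analysed here.

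Interleukins are secreted proteins by which immune, epithelial and stromal cells signal to one another at low concentrations. Ligands of the IL-1 family (IL-1α, IL-1β, IL-18, IL-33, IL-36) bind receptors that act through MyD88 and NF-κB, and IL-17 receptors act through the adaptor Act1 (gene Traf3ip2). Receptors for most of the other interleukins pair a specific chain with a shared one, such as the common gamma chain Il2rg or gp130 (Il6st), and act through JAK kinases and STAT factors. In the gut, IL-22 acts on the epithelium through Il22ra1 and Il10rb, and IL-10 restrains macrophages through Il10ra and Il10rb.

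Promoters are shown for the 5 members with at least 1 FPKM in a group that stood over 2-fold apart (Il1a, Il1b, Il21r, Il2ra and Il4i1), for Il6, which had the widest ratio among members with both values above 0, and for the most abundant ligand (Il18), a choice made after their values were seen. The sequences run from 250 bases before the RefSeq gene start to 50 after it on assembly GRCm38.p6. For Il18 the window lies before the authors' listed position of the gene (50565368 to 50581837), not at its start. For Il1b and Il4i1 the window lies inside a listed position that is shared with other rows. Capitals mark matches on either strand to the consensus of NF-κB, to the TATA box TATAAA or to the AP-1 motif TGANTCA. No motif letters contain those of another.
Il1a, chr2:129309923-129310222, minus strand: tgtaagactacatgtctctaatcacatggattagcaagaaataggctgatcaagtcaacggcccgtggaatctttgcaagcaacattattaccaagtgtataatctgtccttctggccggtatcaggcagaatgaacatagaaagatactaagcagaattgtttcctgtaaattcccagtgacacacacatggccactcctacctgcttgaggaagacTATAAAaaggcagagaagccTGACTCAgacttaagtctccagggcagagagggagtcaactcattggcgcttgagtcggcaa
Il1b, chr2:129371090-129371389, minus strand: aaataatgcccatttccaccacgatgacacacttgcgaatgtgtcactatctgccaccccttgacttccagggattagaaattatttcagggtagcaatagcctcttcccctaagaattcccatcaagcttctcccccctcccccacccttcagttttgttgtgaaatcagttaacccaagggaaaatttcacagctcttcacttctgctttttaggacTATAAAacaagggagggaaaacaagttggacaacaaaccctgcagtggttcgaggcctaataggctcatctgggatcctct
Il21r, chr7:125603179-125603478, plus strand: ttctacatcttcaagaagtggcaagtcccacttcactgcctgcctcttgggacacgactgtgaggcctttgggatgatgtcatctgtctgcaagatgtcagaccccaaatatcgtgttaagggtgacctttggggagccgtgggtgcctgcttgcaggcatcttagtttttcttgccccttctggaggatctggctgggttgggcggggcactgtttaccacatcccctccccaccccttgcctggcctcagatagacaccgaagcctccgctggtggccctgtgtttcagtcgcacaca
Il2ra, chr2:11642542-11642841, plus strand: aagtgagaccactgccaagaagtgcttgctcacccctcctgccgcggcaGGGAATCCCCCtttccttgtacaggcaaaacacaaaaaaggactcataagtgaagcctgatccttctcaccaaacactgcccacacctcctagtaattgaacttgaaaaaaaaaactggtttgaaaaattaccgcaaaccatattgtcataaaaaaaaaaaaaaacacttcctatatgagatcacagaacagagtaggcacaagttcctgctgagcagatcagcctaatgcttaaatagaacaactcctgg
Il4i1, chr7:44836038-44836337, plus strand: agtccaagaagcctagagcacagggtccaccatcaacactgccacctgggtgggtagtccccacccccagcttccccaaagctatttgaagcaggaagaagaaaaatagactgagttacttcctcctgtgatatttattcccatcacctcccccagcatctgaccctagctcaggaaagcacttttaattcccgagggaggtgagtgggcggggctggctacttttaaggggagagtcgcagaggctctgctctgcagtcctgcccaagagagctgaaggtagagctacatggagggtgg
Il6, chr5:30012864-30013163, plus strand: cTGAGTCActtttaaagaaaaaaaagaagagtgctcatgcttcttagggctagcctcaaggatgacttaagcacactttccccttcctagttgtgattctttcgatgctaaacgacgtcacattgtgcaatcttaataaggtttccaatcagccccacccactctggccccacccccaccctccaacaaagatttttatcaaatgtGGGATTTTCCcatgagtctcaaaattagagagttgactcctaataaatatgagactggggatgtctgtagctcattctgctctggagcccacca
Il18, chr9:50554450-50554749, plus strand: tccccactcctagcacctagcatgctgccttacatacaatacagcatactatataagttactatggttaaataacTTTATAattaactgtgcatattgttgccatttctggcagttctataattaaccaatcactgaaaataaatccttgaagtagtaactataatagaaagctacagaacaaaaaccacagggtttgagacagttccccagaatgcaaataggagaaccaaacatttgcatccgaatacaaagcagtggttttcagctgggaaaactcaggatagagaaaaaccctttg
The Il1a promoter held TATAAA and the AP-1 motif, the Il1b promoter held TATAAA, and the Il6 promoter held the NF-κB consensus and the AP-1 motif. In Il18 the match to TATAAA was on the reverse strand, the Il2ra promoter held overlapping matches to the NF-κB consensus, and in Il21r and Il4i1 none of the letters were found in this window. RefSeq gave a promoter for 65 of the 82 members. TATAAA stood in 10 of 27 ligand promoters and 2 of 33 receptor promoters, against 14.2% of all 27025 promoters. The AP-1 motif stood in 6 of 27 ligand and 5 of 33 receptor promoters (7.93% of all), and the NF-κB consensus in 2 of 27 and 4 of 33 (8.18% of all). A match describes letters only.

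Ligands and receptors differed in level. Of the 37 ligands, 29 (78.4%) were below 1 FPKM in both groups, whereas 10 of 40 receptor chains (25%) were. Among all members the count was 41 of 82 (50%), beside 44.4% of all 23358 rows. In group E 30 ligands and 13 receptor chains were below 1 FPKM, and in group D 29 and 11 were. The median ligand had 0.0546 FPKM in group E and 0.0933 FPKM in group D, and the median receptor chain had 2.41 FPKM in group E and 2.91 FPKM in group D. All rows had medians of 1.67 FPKM in group E and 1.75 FPKM in group D. No ligand reached 10 FPKM in both groups, and 8 receptor chains did. The summed level of the receptors was 321 FPKM in group E and 347 FPKM in group D, and that of the ligands was 35.5 FPKM in group E and 38.8 FPKM in group D. In tissue of mixed cells, fewer cells of a type and less RNA per cell cannot be told apart.

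Il18 was the most abundant ligand. It had 13.3 FPKM in group E and 9.37 FPKM in group D. Il33, an alarmin of epithelial and stromal cells, had 5.39 FPKM in group E and 4.54 FPKM in group D. Both were thus listed higher in group E, each by less than 1.5-fold. Il34, a ligand of the macrophage receptor Csf1r, had 3.92 FPKM in group E and 4.86 FPKM in group D, and Il16, a chemoattractant that binds CD4, had 4.02 FPKM in group E and 4.60 FPKM in group D. Il7, a survival factor of lymphocytes, had 2.11 FPKM in group E and 2.0 FPKM in group D. These 3 lay within 1.5-fold. Il15, which maintains intraepithelial and other cytotoxic lymphocytes, had 3.09 FPKM in group E and 5.41 FPKM in group D. It was lower in group E by 0.81 on the log2 scale (log2 of E over D of −0.81), between 1.5-fold and 2-fold.

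The pair Il1a and Il1b were the ligands with at least 1 FPKM in one group that were lower in group E by over 2-fold. They encode IL-1α and IL-1β, agonists of the same receptor. Il1b had 1.42 FPKM in group E and 2.89 FPKM in group D (log2 of E over D of −1.02). Il1a had 0.80 FPKM in group E and 1.97 FPKM in group D (log2 −1.30). Both lie on chromosome 2, between 129297370 and 129375733 in the authors' coordinates, and each shares its listed position with a further row (Gm14023 for Il1a, Gm14047 for Il1b), so reads of the overlapping genes may have been divided between them. Il1rn, the receptor antagonist encoded in another cluster of the same chromosome (24153172 to 24351491), had 2.13 FPKM in group E and 2.10 FPKM in group D. The agonists were thus listed lower in group E, and their antagonist was level between the groups. The IL-36 and IL-38 genes beside Il1rn had little or no signal. Il1f6, Il1f9 and Il1f10, with the antagonist Il1f5, were listed at 0 in both groups, and Il1f8 had 0.0943 FPKM in group E and was listed at 0 in group D.

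**Figure D1:**
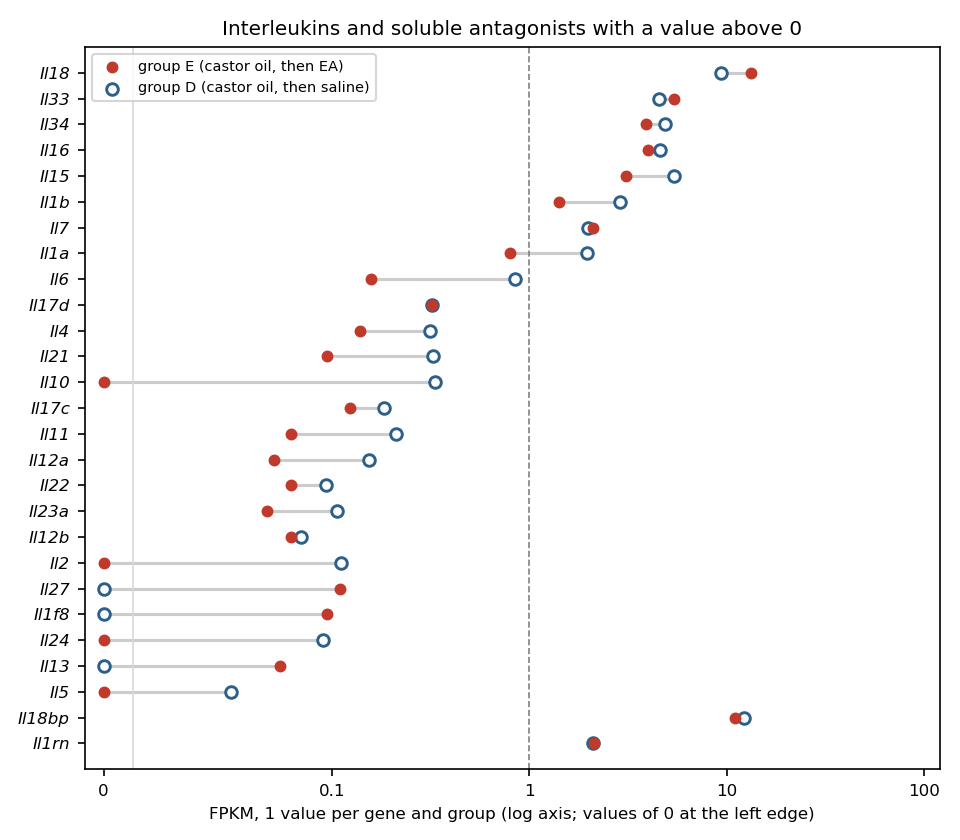
FPKM of each interleukin and soluble antagonist with a value above 0 (log axis, values of 0 at the left edge), with filled points for group E and open points for group D and 1 value per gene and group. Il18 lies at the top with 13.3 FPKM in group E and 9.37 FPKM in group D, and the ligands from Il6 down lie left of the dashed line at 1 FPKM in both groups.

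Below 1 FPKM the values rest on few sequenced fragments. Among genes with a single transcript, most values of 1 to 10 fragments (70.6% in group E and 71.2% in group D) were whole multiples of a common step within a tolerance of 0.1, and this step gave the worth of 1 fragment at a kilobase of effective length as 0.0541 FPKM in group E and 0.0407 FPKM in group D. The number of fragments behind a value was estimated from it, using the principal transcript of each gene. Of the 29 low ligands, 17 had a fragment in one group or the other, and 15 of these had at most 10 fragments in each group. The low ligands together had 27.5 fragments in group E and 91.6 in group D, or a summed level of 1.38 FPKM in group E and 3.20 FPKM in group D. Without Il6 the summed level was 1.23 FPKM in group E and 2.35 FPKM in group D. Of the 17, 14 had the lower value in group E and 3 the higher. Over all genes below 1 FPKM in both groups and above 0 in one, 56.2% had the lower value in group E.

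Il6 had 0.158 FPKM in group E and 0.847 FPKM in group D (log2 of E over D of −2.42), from an estimated 2.70 fragments in group E and 19.3 in group D. The Il6 value of group D is the only 1 of 34485 values above 0 in the table that is not written with at most 6 significant digits. The Il6 value of group E is written as exactly 0.158, with no further digits. The log2 value of Il6 is therefore given as a value of the table as it stands. Il21, a product of follicular helper T cells, had 0.0946 FPKM in group E (4.99 fragments) and 0.328 FPKM in group D (23.0 fragments). Il10 was listed at 0 in group E and at 0.336 FPKM (9.03 fragments) in group D. Of the 17 low ligands above 0 in a group, these 3 had 95% intervals for counting error alone that lay below a ratio of 1, and none had one above. Of 3973 genes in this range with a transcript length, 6.85% had an interval below 1. That share is not matched for fragment number, on which the interval depends, so no excess among ligands can be read from it. The upper bound of E over D was 0.713 for Il6, 0.777 for Il21 and 0.674 for Il10. The genes beside Il10 on chromosome 1 (130882074 to 131024970) had at most 0.0903 FPKM in either group: Il24 was listed at 0 in group E and at 0.0903 FPKM in group D, and Il19 and Il20 were at 0 in both.

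The remaining low ligands with a value above 0 had intervals that held 1, so no difference was detectable at this depth. Il17d had 0.323 FPKM in each group. Il22, which drives epithelial defence and repair, had 0.0621 FPKM in group E and 0.0933 FPKM in group D, from 1.03 fragments in group E and 2.05 in group D. Il23a, the IL-23 subunit that maintains type 3 lymphoid cells, had 0.0473 FPKM in group E and 0.107 FPKM in group D. Both were thus near the level of a single fragment. The IL-12 subunits had 0.0512 FPKM in group E and 0.154 FPKM in group D for Il12a, and 0.0623 FPKM in group E and 0.0703 FPKM in group D for Il12b, and Il27 had 0.111 FPKM in group E and was listed at 0 in group D. Il11 had 0.0626 FPKM in group E and 0.212 FPKM in group D, and Il17c had 0.124 FPKM in group E and 0.185 FPKM in group D. Each of these rested on at most 10 fragments. The type 2 cytokines on chromosome 11 (53612461 to 53725103) were as low. Il4 had 0.140 FPKM in group E and 0.313 FPKM in group D, Il13 had 0.0546 FPKM in group E and 0 in group D, and Il5 was listed at 0 in group E and at 0.0309 FPKM in group D. Il2 was listed at 0 in group E and at 0.111 FPKM in group D. The 12 ligands at 0 in both groups were Il3, Il9, Il17a, Il17b, Il17f, Il19, Il20, Il25, Il31, Il1f6, Il1f9 and Il1f10, and so included Il17a, a product of type 3 lymphocytes, and Il25, a product of tuft cells.

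**Figure D2:**
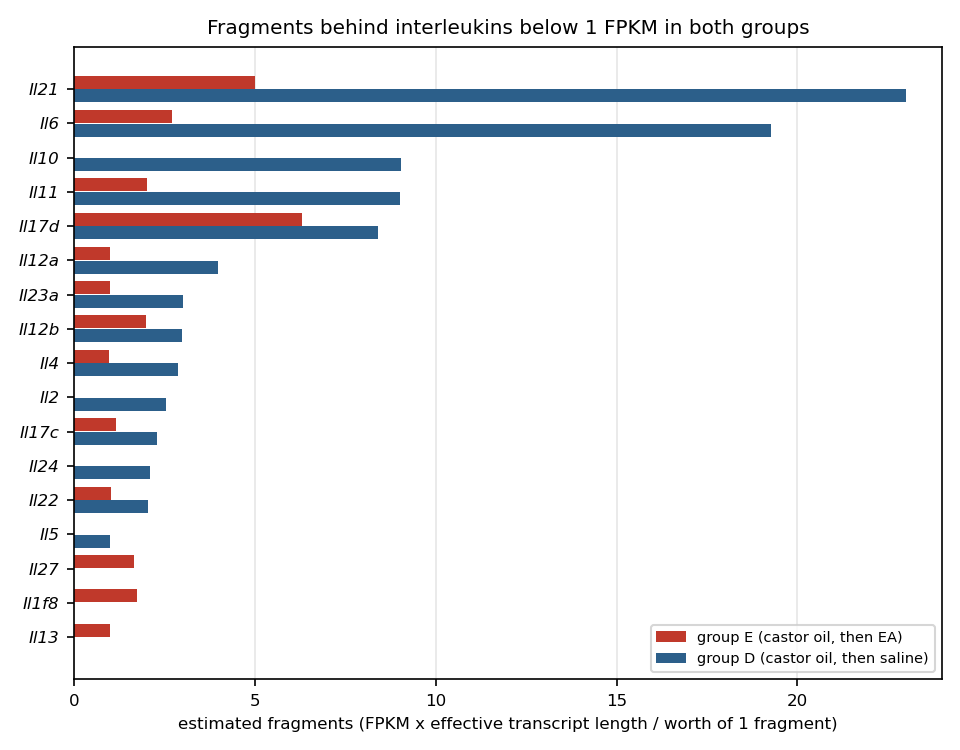
Estimated fragments (linear axis from 0) behind the 17 ligands below 1 FPKM in both groups with a value above 0, with the bar of group E above that of group D for each gene. The longest bars are those of Il21 (4.99 fragments in group E, 23.0 in group D) and Il6 (2.70 in group E, 19.3 in group D), and 15 of the 17 genes stay at or under 10 fragments in both groups.

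Of the soluble antagonists and decoys, Il18bp, Il1rn, Il1r2 and Il22ra2 were above 1 FPKM in both groups. Il18bp, which binds and neutralises IL-18, had 11.1 FPKM in group E and 12.2 FPKM in group D. Il1r2, a decoy that binds IL-1 without signalling, had 4.12 FPKM in group E and 2.74 FPKM in group D, the 1 member with at least 1 FPKM in a group that was listed higher in group E by over 1.5-fold. Il22ra2, the soluble IL-22 binding protein, had 1.99 FPKM in group E and 1.86 FPKM in group D. Il13ra2, a decoy for IL-13, was listed at 0 in group E and at 0.123 FPKM in group D. Il1a and Il1b thus had lower values in group E beside the decoy Il1r2 at a higher one. Not all of the IL-1 family went this way. Il1rn, Il1r1 and Il1rap lay within 1.5-fold, and the ligands Il18 and Il33 had the higher value in group E. Il1r2 too shares its listed position with another row (Gm16894).

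The 8 most abundant receptor chains are given first. Il13ra1, a chain of the receptor for IL-4 and IL-13, had 61.0 FPKM in group E and 63.9 FPKM in group D. Il17rc, which pairs with Il17ra, had 48.1 FPKM in group E and 60.0 FPKM in group D, and Il10rb, shared by the receptors of IL-10 and IL-22, had 34.3 FPKM in group E and 44.4 FPKM in group D. All 3 had the lower value in group E, by less than 1.5-fold. Il6st had 37.3 FPKM in group E and 29.8 FPKM in group D, and Il22ra1 had 34.5 FPKM in group E and 31.5 FPKM in group D. Both had the higher value in group E. Il4ra, the other chain of the IL-4 receptor, had 12.7 FPKM in group E and 15.7 FPKM in group D. Il1rl1, the receptor of IL-33, had 13.7 FPKM in group E and 12.3 FPKM in group D, and Il2rg had 11.9 FPKM in group E and 10.7 FPKM in group D. All 8 lay within 1.5-fold.

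Levels of receptors and of their ligands were far apart in several systems. The IL-22 receptor chains Il22ra1 and Il10rb were among the 8 most abundant, while Il22 was near 1 fragment in group E. Likewise Il17rc and Il17ra, the receptor of IL-17A and IL-17F, had 48.1 and 7.20 FPKM in group E and 60.0 and 8.87 FPKM in group D, while both ligand genes were listed at 0. The IL-17 receptor genes all had the lower value in group E, with 1.61 FPKM in group E and 2.25 FPKM in group D for Il17rb (the IL-25 receptor), 0.945 FPKM in group E and 1.35 FPKM in group D for Il17rd, and 0.239 FPKM in group E and 0.681 FPKM in group D for Il17re (the IL-17C receptor). Il6ra, the specific chain for IL-6, had 3.77 FPKM in group E and 3.88 FPKM in group D. The IL-10 chain Il10ra had 3.22 FPKM in group E and 3.97 FPKM in group D. For IL-23, Il23r had 0.381 FPKM in group E and 0.716 FPKM in group D, and its partner Il12rb1 had 1.08 FPKM in group E and 0.904 FPKM in group D, so this receptor was near or below 1 FPKM in both groups. For IL-1, Il1r1 had 5.95 FPKM in group E and 5.76 FPKM in group D, and its partner Il1rap had 2.82 FPKM in group E and 3.08 FPKM in group D. These IL-1 receptor chains were level between the groups, whereas Il1a and Il1b were not. A run of 6 receptor genes of the IL-1 family on chromosome 1 (40076212 to 40549297) was detected throughout, with 1.07 to 13.7 FPKM in group E and 1.60 to 12.3 FPKM in group D.

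**Figure D3:**
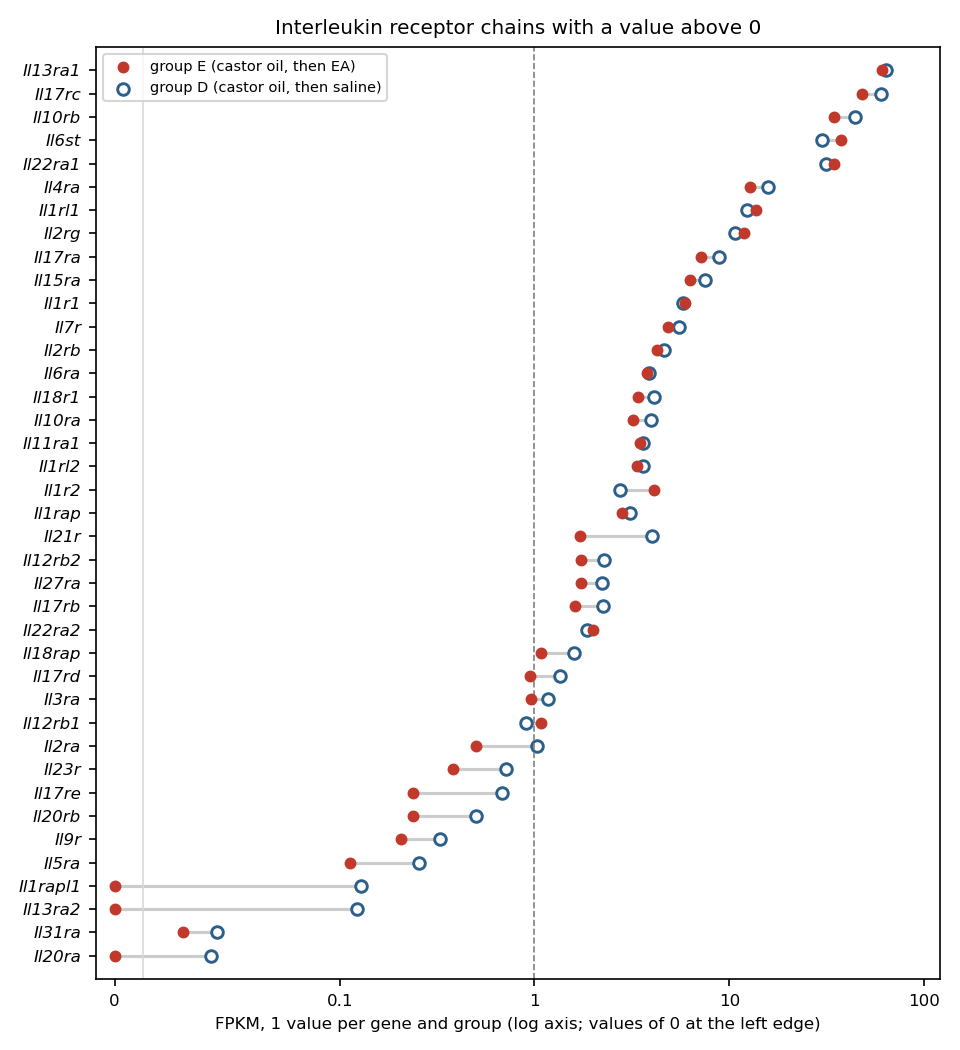
FPKM of each receptor chain with a value above 0 (log axis, values of 0 at the left edge), with filled points for group E and open points for group D and 1 value per gene and group. The 8 chains at the top exceed 10 FPKM in both groups, and Il21r shows the widest gap among chains above 1 FPKM in both, with 1.72 FPKM in group E and 4.02 FPKM in group D.

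Il21r and Il2ra had lower levels than those 8 chains in both groups. Il21r, the receptor of IL-21 on B and T cells, had 1.72 FPKM in group E and 4.02 FPKM in group D (log2 of E over D of −1.23). Il2ra, the chain that gives the IL-2 receptor its high affinity and marks regulatory and activated T cells, had 0.50 FPKM in group E and 1.02 FPKM in group D (log2 −1.03). Il21r and Il2ra were the only receptor chains with at least 1 FPKM in one group that were lower in group E by over 2-fold. Il2rb and Il2rg, the other chains of these receptors, did not share this size of change. Il2rb had 4.25 FPKM in group E and 4.61 FPKM in group D. Il15ra, of the IL-15 receptor, had 6.25 FPKM in group E and 7.52 FPKM in group D. Il7r, of the IL-7 receptor, had 4.84 FPKM in group E and 5.53 FPKM in group D. With Il2rg they lay within 1.5-fold. The chains Il18r1, Il11ra1, Il1rl2, Il12rb2, Il27ra, Il18rap and Il3ra, with 0.964 to 3.50 FPKM in group E and 1.17 to 4.11 FPKM in group D, also lay within 1.5-fold. Il11ra1 has a near-identical copy in the mouse genome, so its values are uncertain. Below 1 FPKM in both groups, Il20rb had 0.239 FPKM in group E and 0.504 FPKM in group D, Il9r had 0.207 FPKM in group E and 0.326 FPKM in group D, and Il5ra had 0.113 FPKM in group E and 0.256 FPKM in group D. Il1rapl1, a long transcript, was listed at 0 in group E and at 0.129 FPKM in group D, which corresponds to 28.3 fragments, and Il31ra and Il20ra were each at or under 0.0236 FPKM, with Il1rapl2 at 0 in both groups. Of 9 receptor chains below 1 FPKM in both groups and above 0 in one, 4 had a counting interval of E over D below 1, beside the 6.85% given above for all such genes. These 4 had 28.3 to 45.6 fragments in group D. The share of all genes is not matched for fragment number, on which the interval depends, so no excess can be read from it. The upper bound of the interval was 0.187 for Il1rapl1, 0.665 for Il17re, 0.931 for Il20rb and 0.971 for Il23r.

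Il4i1, a secreted enzyme of B cells and myeloid cells that was not counted with ligands or receptors, had 1.45 FPKM in group E and 3.22 FPKM in group D (log2 of E over D of −1.15). Its listed position is shared with Atf5, Tbc1d17 and Nup62, so its value too is uncertain. The Il8 row had 0.0566 FPKM in group E and was listed at 0 in group D.

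A fold was counted for 41 members, those with both values above 0 and 1 FPKM or more in either group. None was higher in group E by over 2-fold, where 1.77% of 12957 genes were. Lower in group E by over 2-fold were 5 (Il1a, Il1b, Il21r, Il2ra and Il4i1), where 1.74% of all genes were. They comprised 2 of 8 ligands and 2 of 30 receptor chains. Of the 25 members with a mean of 1 to 5 FPKM, 4 were lower by over 2-fold (all but Il2ra), where 3.34% of 3714 such genes were. Apart from these 5, Il15 and Il1r2, the other 34 lay within 1.5-fold. The median log2 of E over D was −0.25 over the 8 ligands with a mean of at least 1 FPKM (3 above 0 and 5 below) and −0.23 over 28 receptor chains (7 above and 21 below). Over 12694 genes it was 0.01, with 6499 above and 6195 below. Counting intervals of the ratio (95%, exact binomial on the estimated fragments) lay below 1 for 16 of the 41 members and above 1 for 5, and held 1 for 20. Of 12498 genes under the same filter with a transcript length, 26.0% had an interval below 1 and 29.7% had one above 1. These shares too are not matched for fragment number. These intervals hold counting error only, not the spread between mice. They ran from 0.252 to 0.637 for Il1a (26.0 fragments in group E, 85.0 in group D), from 0.313 to 0.757 for Il1b (30.0 in group E, 81.0 in group D), and from 0.322 to 0.557 for Il21r. The interval of Il2ra ran from 0.330 to 0.712, and that of Il15 from 0.447 to 0.730. On the higher side, it ran from 1.13 to 1.80 for Il18, from 1.21 to 1.30 for Il6st and from 1.11 to 2.06 for Il1r2. Il33, by contrast, had an interval of 0.990 to 1.42 that held 1.

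**Figure D4:**
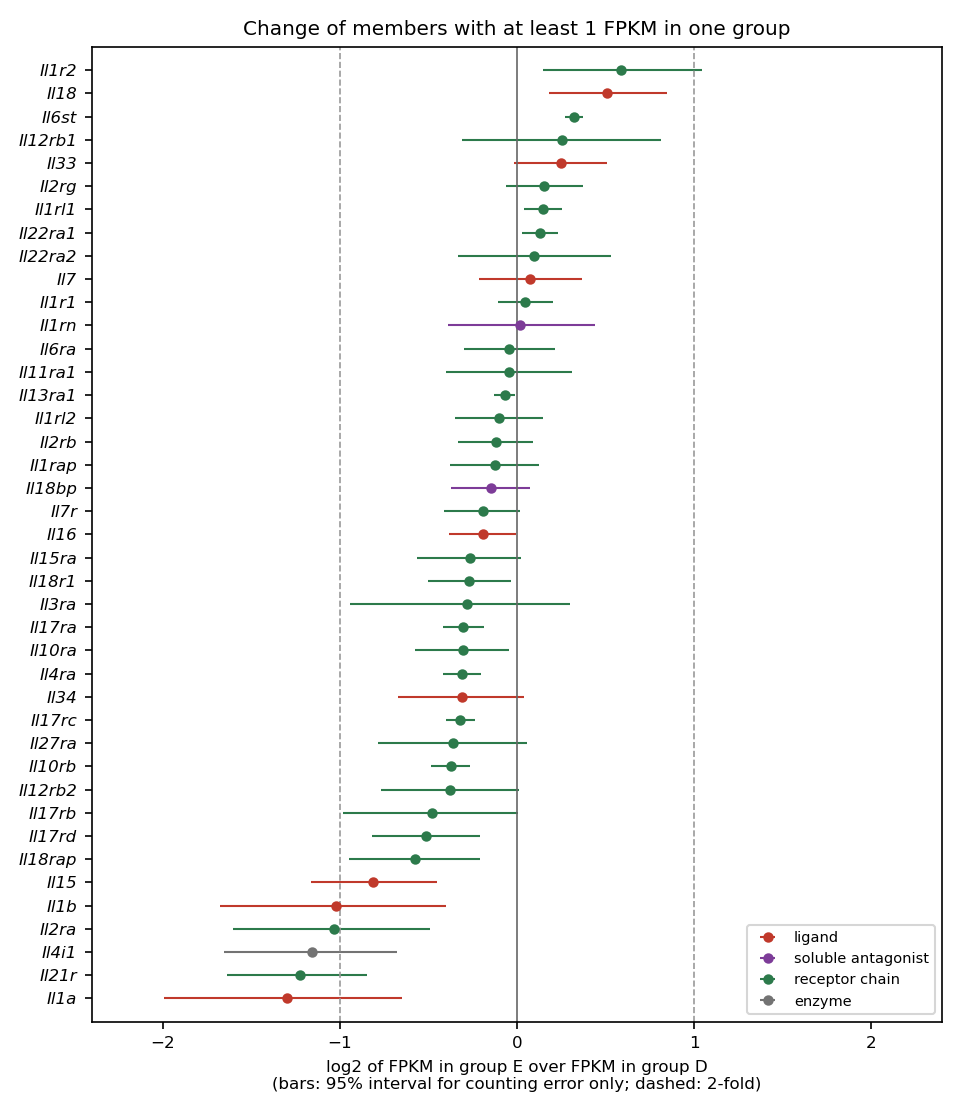
Log2 of FPKM in group E over FPKM in group D for the 41 members with at least 1 FPKM in one group, with bars for the 95% interval of counting error only and dashed lines at 2-fold. Il1a, Il21r, Il4i1, Il2ra and Il1b lie left of the lower dashed line, and no member lies right of the upper one.

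Genes downstream of these receptors are described by the same counts. Over all genes, 1.77% were higher and 1.74% lower in group E by over 2-fold. At those shares, lists of this length would hold few such genes. Of 22 genes of the JAK-STAT pathway, 0 passed 2-fold in either direction, and the median log2 was −0.15 (6 above 0 and 16 below). Stat3, which acts below gp130 and the IL-10 and IL-22 receptors, had 47.7 FPKM in group E and 44.3 FPKM in group D, and its feedback inhibitor Socs3 had 14.2 FPKM in group E and 16.8 FPKM in group D. Of 25 genes of IL-1 and IL-17 signalling, 24 reached 1 FPKM in a group. Of these, 1 was lower by over 2-fold, where 1.74% of all genes were, and the median log2 was 0.03. That gene was Nfkb1, an NF-κB subunit, with 12.8 FPKM in group E and 29.0 FPKM in group D (log2 −1.18). The adaptors Myd88 (19.3 FPKM in group E, 18.7 FPKM in group D) and Traf3ip2 (11.5 FPKM in group E, 10.3 FPKM in group D) were level. Of 17 partner chains and related cytokines with other symbols, 11 reached 1 FPKM in either group and none of these passed 2-fold.

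Markers of the cells that make or receive interleukins did not move as 1 group. The counts below stand beside 1.77% of all genes higher and 1.74% lower in group E by over 2-fold. Epithelial markers fitted the labelled tissue, with Vil1 at 950 FPKM in group E and 980 FPKM in group D, and Fabp6, a bile acid binder of the ileum, at 3846 FPKM in group E and 5698 FPKM in group D. Of 8 T cell markers, Cd2 was lower by over 2-fold (1.69 FPKM in group E, 3.63 FPKM in group D), and the list summed to 46.9 FPKM in group E and 42.9 FPKM in group D. B cell markers were split by over 2-fold in both directions: Ms4a1, Cd22 and Blk were higher and Pax5, Cr2 and Cd79b were lower, and Pax5 had 1.09 FPKM in group E and 4.63 FPKM in group D while Ms4a1 had 10.2 FPKM in group E and 3.0 FPKM in group D. The B cell list summed to 36.6 FPKM in group E and 45.0 FPKM in group D. None of 8 macrophage markers passed 2-fold. Of 6 mast cell markers, 4 could be counted for a fold, and 3 of these were higher by over 2-fold (Mcpt1 at 45.1 FPKM in group E and 20.6 FPKM in group D). Kit was lower, with 10.1 FPKM in group E and 11.9 FPKM in group D. Ms4a2 and Tpsb2 were below 1 FPKM in both groups. Of 6 neutrophil markers, 2 with at least 1 FPKM in a group were higher by over 2-fold (S100a8 at 4.94 FPKM in group E and 1.60 FPKM in group D). Csf3r had 0.707 FPKM in group E and 0.815 FPKM in group D. Mpo and Ngp were also below 1 FPKM in both groups, and Camp was at 0 in both. The mast cell list summed to 75.2 FPKM in group E and 41.9 FPKM in group D, and the neutrophil list to 7.88 FPKM in group E and 3.26 FPKM in group D. The type 3 lymphoid marker Ahr had 6.79 FPKM in group E and 7.24 FPKM in group D. Of 4 tuft cell markers in the table, only 2 could be counted for a fold, and none of these passed 2-fold. Of 8 fat cell markers, 4 were higher by over 2-fold, 1 was lower and 3 were listed at 0 in group D, with a sum of 872 FPKM in group E and 569 FPKM in group D. Among them, Adipoq had 63.4 FPKM in group E and 0.120 FPKM in group D, Cfd had 274 FPKM in group E and was listed at 0 in group D, and Fabp4 had 25.6 FPKM in group E and 536 FPKM in group D. The part of these marker levels in the values of Il21r, Il2ra, Il1a, Il1b and Il4i1 was not tested. The FPKM of all rows summed to 589890 in group E and 459683 in group D, while the upper quartile of values above 0 was 17.8 FPKM in group E and 17.1 FPKM in group D.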

How the data were processed

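Per the paper's methods and the submitters' processing notes, paired-end reads of ileum RNA were aligned with TopHat2 2.0.12 on a Bowtie2 2.2.3 index, and DESeq 1.18.0 compared the groups. For each gene, the authors deposited 1 FPKM value per group, in the layout of Cuffdiff. How libraries of a group were joined and scaled, whether strand was used in counting, and the genome build are not given in the sources used here. Further columns with the authors' own fold change, p-value and q-value, and a second table of their pathway enrichment results, were not used.

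From the deposited FPKM, log2 of group E over group D was computed with no pseudocount where both values were above 0. A fold was counted past 2-fold with at least 1 FPKM in one group. Levels, counts and medians are descriptions without tests. FPKM gives no depth, but the values of 1 to 10 fragments of 3766 single-transcript genes were whole within 0.1 in 70.6% of cases in group E and 71.2% in group D, once 215 bases were taken off the transcript length (GENCODE M21). At equal length, 1 fragment was worth 1.33 times as much FPKM in group E as in group D. Among members, 21 of 30 such values were whole. Fragment numbers assume the principal transcript: Il6 transcripts run from 651 to 2343 bases, and the longest would give 6.21 fragments in group E and 44.3 in group D. All 82 members overlapped the RefSeq GRCm38.p6 position of the same gene.

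Named were members past 2-fold, the most abundant ligands and receptors, cytokines of gut inflammation with their receptors, and antagonists and decoys. The other members were named only to account for each row. Values of some marker genes are not reported here. The members and lists were chosen with earlier results of these data known. Scripts (Python 3.11.15, pandas 2.3.3, scipy 1.17.1) were tested on simulated data. Other fold limits, filters, scalings and a pseudocount were tried.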

Additional observations from a re-analysis of the deposited data

How the results depend on the processing

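With 1 value per gene and group, neither the spread between mice nor leaving out a replicate could be examined, and group differences cannot be told apart from differences between animals or libraries. No paired analysis was possible because each group has a single value per gene. Of the ligands with at most 10 fragments in both groups, Il10 alone had a counting interval that did not hold 1. The count of ligands below the threshold moved little (28 at 0.5 FPKM, 30 at 2 FPKM, 29 by the mean), while receptor chains below it numbered 16 at 2 FPKM. Members lower in group E by over 2-fold numbered 0 at 3-fold, 14 with no filter on low values, 3 with at least 1 FPKM in both groups and 0 with a pseudocount of 1 FPKM. They numbered 2 (Il21r and Il2ra) without Il6 and the members at the position of another gene, an alternative chosen after seeing the data. Higher by 1.5-fold was 1 member. Upper-quartile scaling (log2 shift of −0.06) left 5 lower and 0 higher. The ligand median log2 of −0.25 was −0.70 with no filter, −0.26 centred on the median gene, −0.31 with upper-quartile scaling, −0.21 with the pseudocount and −0.35 as a mean, and it reversed to 0.51 with a mean of at least 5 FPKM, where Il18 was the 1 ligand left. The receptor median of −0.23 was −0.29 with no filter, −0.13 with a mean of at least 5 FPKM, −0.24 centred, −0.29 with upper-quartile scaling, −0.15 with the pseudocount and −0.18 as a mean. Over members with at least 1 FPKM in one group the median level was 3.50 FPKM in group E and 4.57 FPKM in group D for ligands, and 3.63 FPKM in group E and 4.0 FPKM in group D for receptors. Without decoys the receptor medians were 2.82 FPKM in group E and 3.61 FPKM in group D.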
